A study of Homo sapiens with 4 samples.

Results

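The 19q13 zinc finger gene cluster was taken as the stretch of human chromosome 19 from 52000 to 59050 kb (build hg19), leaving out 53535 to 53565, 54020 to 54085 and 57345 to 57358 kb, which hold imprinted genes. Members were 1 kb tiles with at least 5 CpG cytosines, each covered by at least 10 reads in all 4 libraries. The cluster held 251 such tiles with 3697 cytosines, of 20581 tiles with 411226 cytosines in the series. The rest of chromosome 19 held 1030 tiles with 16324 cytosines. The assay was bisulfite sequencing of DNA enriched with a methylation capture kit, and the cells were H9, an established line of human embryonic stem cells. The 4 libraries, 1 per group, were B3GALT5-/- (KO) cells in the naive state in 2iLAF medium, wild-type (WT) cells in the naive state in 5iLAF medium, primed KO cells in basal medium and primed WT cells in basal medium. B3GALT5 encodes a galactosyltransferase of glycosphingolipid synthesis. Genotype and medium differ together in the naive state and cannot be told apart there, and differences between groups have no check by replicates.

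Clusters of this kind encode C2H2 zinc finger proteins, many of which carry a KRAB domain. KRAB zinc finger proteins bind DNA, often within transposable elements, and recruit TRIM28, through which the bound sequence is silenced. Primed human embryonic stem cells have high CpG methylation over most of the genome, and the naive state is known for lower methylation outside some protected regions. Interspersed with the zinc finger genes of 19q13 are genes of the immune receptor families KIR and LILR, genes of the NLRP family and a primate-specific microRNA cluster, C19MC, which is expressed from the paternal copy in placenta.

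The label was checked by placing promoters of RefSeq (GRCh38.p14, 250 bases before to 50 bases after each start) on the hg19 positions of the listed CpGs by the spacing of their CpGs. Of 309 promoters that RefSeq orders within the stretch, including the parts left out above, 120 were placed. They belonged to 109 of 254 genes, and 55 of 111 genes with zinc finger symbols (ZNF, ZSCAN, ZIK or ZFP) were among them. A promoter could be placed only where its CpGs were listed, that is, had at least 1 methylated read in a library, so placed promoters are those with some methylation.

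The next 5 promoters belong to genes at whose starts contrasts are described further on. For LOC107985342 the covered cytosines begin 139 bp downstream of the start, outside the printed bases, so its sequence bears only on which CpGs were listed. ZNF534 and ZNF578 are zinc finger genes with large naive-to-primed differences, ZNF132 is a zinc finger gene with small ones, and LOC107985342 and ZNF667-AS1 are long non-coding RNA genes at which the 2 naive libraries differed most in either direction among named tiles with a start inside. They were chosen after their values were seen. Sequences are those of RefSeq (GRCh38.p14), written 5′ to 3′ on the strand of the gene, with each CpG in capitals. Positions are hg19 and were inferred from CpG spacing, so bases other than CpGs were not compared with hg19.
ZNF534, chr19:52932151-52932450, plus strand: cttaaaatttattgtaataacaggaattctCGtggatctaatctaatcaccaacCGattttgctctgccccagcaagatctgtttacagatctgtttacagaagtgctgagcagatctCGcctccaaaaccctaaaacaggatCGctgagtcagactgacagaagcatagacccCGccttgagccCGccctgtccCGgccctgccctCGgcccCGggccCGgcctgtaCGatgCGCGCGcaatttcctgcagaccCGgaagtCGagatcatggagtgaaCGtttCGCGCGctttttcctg
ZNF578, chr19:52956556-52956855, plus strand: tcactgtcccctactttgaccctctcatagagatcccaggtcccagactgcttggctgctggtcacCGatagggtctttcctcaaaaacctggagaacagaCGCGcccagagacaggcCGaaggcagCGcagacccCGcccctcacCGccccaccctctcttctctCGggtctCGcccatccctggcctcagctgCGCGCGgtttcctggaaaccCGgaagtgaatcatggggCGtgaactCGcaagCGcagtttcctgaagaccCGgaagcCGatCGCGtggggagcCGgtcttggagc
ZNF132, chr19:58951471-58951770, minus strand: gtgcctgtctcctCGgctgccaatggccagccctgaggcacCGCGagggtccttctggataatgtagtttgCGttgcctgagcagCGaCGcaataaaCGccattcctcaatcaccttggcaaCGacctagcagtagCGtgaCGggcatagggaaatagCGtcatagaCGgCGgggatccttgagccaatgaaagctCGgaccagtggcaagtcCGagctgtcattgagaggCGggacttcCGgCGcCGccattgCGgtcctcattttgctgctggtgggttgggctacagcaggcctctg
LOC107985342, chr19:54151052-54151351, plus strand: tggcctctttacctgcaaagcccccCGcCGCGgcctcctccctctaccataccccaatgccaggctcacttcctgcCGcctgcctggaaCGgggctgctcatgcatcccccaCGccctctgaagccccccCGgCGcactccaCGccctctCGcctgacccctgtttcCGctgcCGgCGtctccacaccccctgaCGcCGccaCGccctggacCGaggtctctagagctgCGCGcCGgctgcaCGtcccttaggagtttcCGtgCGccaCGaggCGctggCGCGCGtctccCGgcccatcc
ZNF667-AS1, chr19:56989243-56989542, plus strand: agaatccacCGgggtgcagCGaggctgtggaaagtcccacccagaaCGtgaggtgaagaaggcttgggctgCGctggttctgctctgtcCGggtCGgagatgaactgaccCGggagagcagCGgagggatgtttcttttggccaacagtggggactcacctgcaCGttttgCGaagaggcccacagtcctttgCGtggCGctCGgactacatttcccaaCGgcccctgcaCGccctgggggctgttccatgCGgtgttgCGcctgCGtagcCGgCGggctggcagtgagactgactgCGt
These sequences held 20 CpGs (ZNF534), 21 (ZNF578), 20 (ZNF132), 29 (LOC107985342) and 21 (ZNF667-AS1) in 300 bases. The 8-base motif CCGGAAGT, searched on both strands, occurred in the promoters of ZNF534, ZNF578 and ZNF132 and in neither of the other 2. It was picked after the sequences had been read. It occurred in 15 of 62 placed promoters of zinc finger symbols (24.2%), in 4 of 58 placed promoters of other symbols (6.90%) and in 1453 of 35116 promoters of the whole table (4.14%). The motif TGCCGC, the binding sequence of the imprint-protecting factor ZFP57, occurred on either strand in 14 of 120 placed promoters (11.7%), against 16.7% of the whole table. These 120 include promoters of ZNF331, also among the 62 of zinc finger symbols, and of LOC124904758. Both genes start in the stretches left out for imprinted genes. Overlapping promoters of a gene were counted apart. A match is a run of letters and not an observed binding site.

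Libraries summed to 40697882 reads at listed cytosines in KO naive, 23916547 in WT naive, 28450230 in KO primed and 24570785 in WT primed cells. At the cytosines of the cluster the median coverage was 30 reads in KO naive, 20 in WT naive, 21 in KO primed and 19 in WT primed cells. Reads were not marked by molecule, and cytosines within reach of 1 fragment share reads, so intervals and tests on reads cover counting error only. Stated conversion was 99% in every library. A cytosine was listed in a table only with at least 1 methylated read, so levels near 0 are raised by selection.

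Methylation across the cluster was lower in the naive libraries than in the primed libraries in both genotypes. Cluster tiles averaged 51.6% ± 19.04 in KO naive and 75.4% ± 18.8 in KO primed cells, and 49.2% ± 20.2 in WT naive and 74.7% ± 18.4 in WT primed cells (SD over 251 tiles). The difference averaged -23.8 points in KO cells and -25.5 points in WT cells (percentage points, SD over tiles 15.9 and 17.3), with a mean of -24.7 ± 1.2 (SD, n = 2 genotypes). It was negative in both genotypes, and the exact two-sided permutation test within the 2 genotype pairs gave p = 0.5, the smallest p it allows. Of the 251 tiles, 243 (96.8%) were lower in KO naive than in KO primed cells, against 94.6% of tiles in the rest of chromosome 19. In WT cells 241 (96.0%) were lower in the naive library, against 94.3% of the rest. At the high end, 129 tiles (51.4%) stood at 80% or above in KO primed cells and 120 (47.8%) in WT primed cells. In KO naive cells 15 (5.98%) did so, and in WT naive cells 14 (5.58%). The shares in the rest were 56.8% in KO primed, 54.1% in WT primed, 10.2% in KO naive and 9.32% in WT naive cells. At the low end, 14 tiles (5.58%) in KO naive and 21 (8.37%) in WT naive cells were at 20% or below. In KO primed cells 0 tiles were that low, and in WT primed cells 2 (0.797%). Here the rest had 8.06% in KO naive, 6.50% in WT naive, 1.65% in KO primed and 1.84% in WT primed cells.

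**Figure D1:**
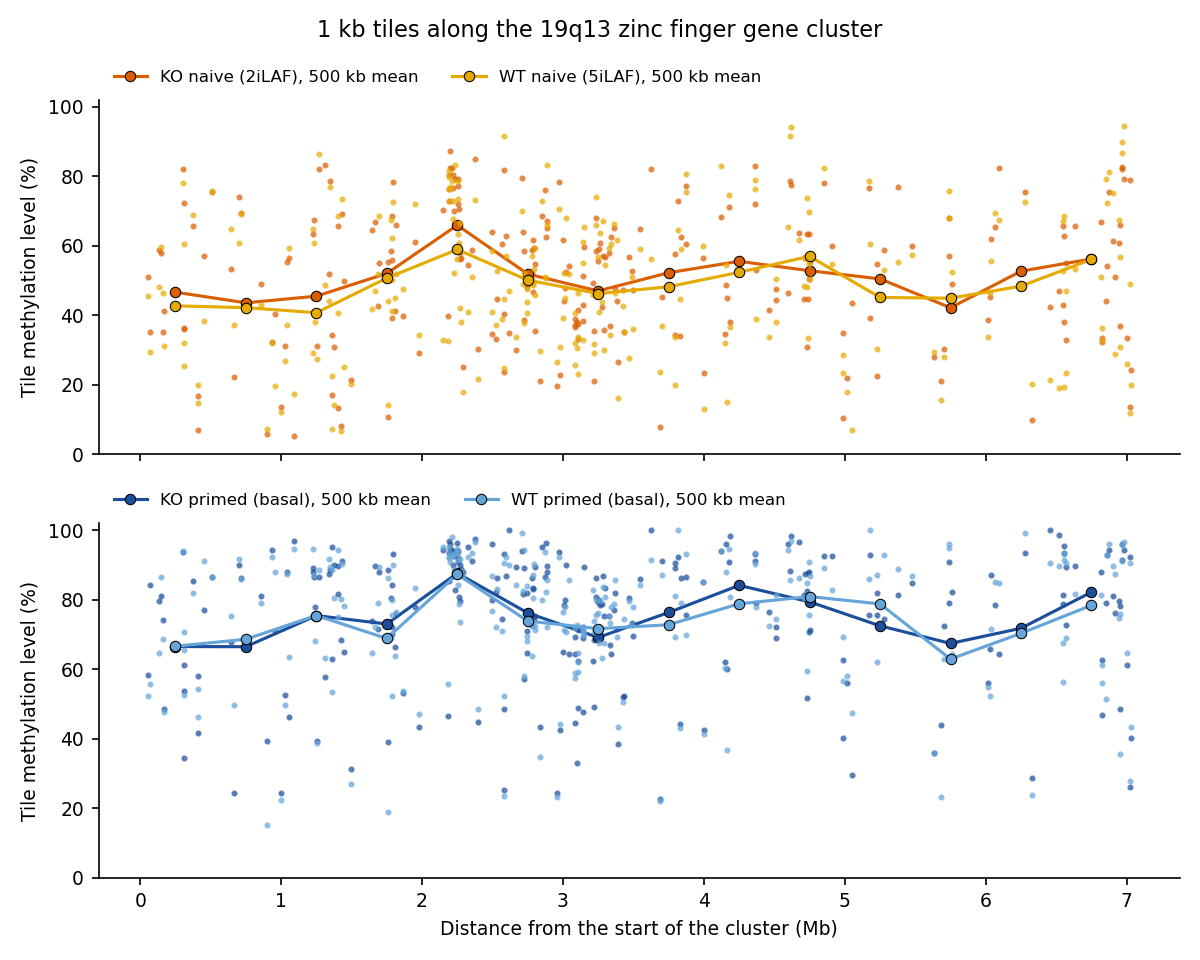
Methylation level (%) of each of the 251 tiles (small points) against distance from the start of the cluster (Mb), in the naive libraries (upper panel) and the primed libraries (lower panel); joined points are means over 500 kb windows with at least 5 tiles. The naive means lie below the primed means in each window drawn, and the highest primed window is the one starting 2 Mb into the cluster.

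Naive means were below primed means along the whole cluster. In 500 kb windows with at least 5 tiles, the mean of both genotypes' naive-minus-primed differences ranged between -32.3 points and -19.6 points. The window from 53 to 53.5 Mb had the largest decrease, with means of 45.5% in KO naive, 40.7% in WT naive, 75.4% in KO primed and 75.4% in WT primed cells over 22 tiles. Its tiles varied widely (SD of the difference 26.2 points), and it held tiles below 20% in both naive libraries as well as a tile above 80% in all 4. The adjacent window from 53.5 to 54 Mb had the smallest decrease (16 tiles, SD 7.04 points). The window from 54 to 54.5 Mb, which holds the start of LOC107985342, had the highest level in each library, at 65.9% in KO naive, 58.9% in WT naive, 87.6% in KO primed and 87.3% in WT primed cells over 27 tiles.

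The cluster was compared with the rest of chromosome 19 in each library. The cluster mean minus the mean of the rest was -1.68 points in KO naive, -1.53 in WT naive, -0.073 in KO primed and -0.067 in WT primed cells. The mean of these differences was -0.84 ± 0.89 points (SD, n = 4 libraries), lower in 4 of 4 libraries, and the exact two-sided sign-flip test gave p = 0.125, the smallest p it allows. The direction depended on what it was set against: relative to the rest of the long arm alone the cluster was higher, by 0.73 points, and with at least 20 reads per cytosine it was higher by 4.18 points. The naive-minus-primed difference was -23.8 points in the cluster and -22.2 points in the rest for KO cells, and -25.5 and -24.1 points for WT cells. The cluster's excess of -1.54 ± 0.099 points (SD, n = 2 genotypes, exact permutation p = 0.5) became +0.32 points against the rest of the long arm. No offset of the cluster mean from its chromosome was therefore established. The shape of the distribution differed in the direction of fewer extreme tiles in the primed state: 23.1% of cluster tiles in KO primed and 23.5% in WT primed cells were at 90% or above, against 32.0% and 28.5% of the tiles in the rest of the chromosome, a difference for which no test was made.

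**Figure D2:**
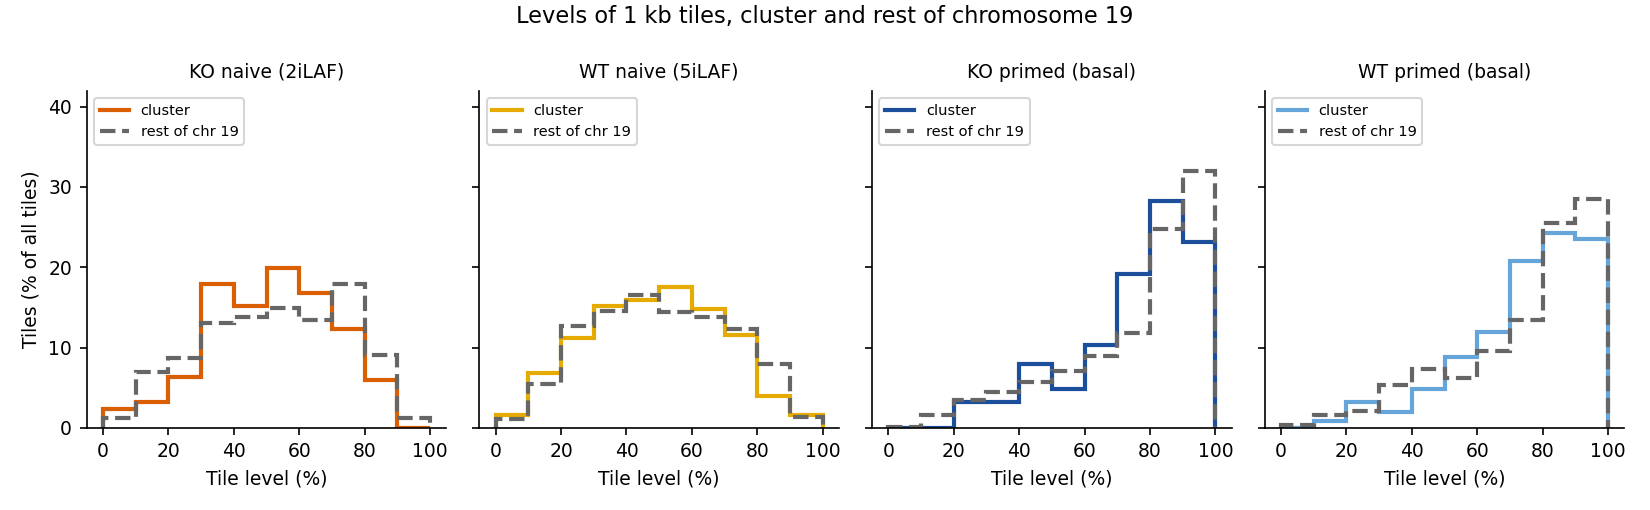
Share of 1 kb tiles (%) in each 10-point class of methylation level, for the cluster (solid, 251 tiles) and the rest of chromosome 19 (dashed, 1030 tiles), 1 panel per library. Cluster and rest have similar centres, and the cluster has a smaller share of tiles at 90% or above in both primed libraries (23.1% against 32.0% in KO primed cells).

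CpG density, the number of listed CpGs within 250 bp of a cytosine, differed between cluster and rest. Tiles with a mean under 10 made up 42.2% of the cluster and 31.7% of the rest. Within the cluster the difference in KO cells averaged -21.1 points in these sparse tiles, -26.8 points in tiles of 10 to 20 and -24.2 points in tiles over 20. In WT cells it averaged -24.5, -25.4 and -27.7 points in the same classes. The cluster's classes overlapped widely, with SDs over tiles of 13.6 to 19.7 points. In the rest of chromosome 19 the averages for these classes were -19.1, -22.9 and -24.4 points in KO cells. For WT cells they were -21.2, -25.2 and -25.7 points there. The gap between cluster and rest within classes was not tested.

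Tiles were counted as lower or higher when the mean differed by at least 25 points and at least 80% of their cytosines moved that way, which is a rule of size and gives no p-value. In KO cells 97 of 251 tiles (38.6%) were lower in the naive library, against 34.2% of all tiles of the series and 36.0% of the rest of chromosome 19. In WT cells 119 tiles (47.4%) were lower, against 37.4% of all tiles and 41.8% of the rest. A higher level in the naive library passed the rule in 1 tile in KO cells (background 0.214%) and in 1 tile in WT cells (background 0.51%). The lists shared 72 lower tiles, which were 74.2% of the KO list and 60.5% of the WT list. These 72 tiles were 28.7% of the cluster, against 23.1% of all tiles and 25.05% of the rest, and 0 cluster tiles were higher in both genotypes (background 0.068%). The shares in the cluster were above those of all tiles and of the rest of chromosome 19, differences for which no test was made.

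Single cytosines were tested by read counts. Fisher's exact test on methylated and unmethylated reads, Benjamini-Hochberg adjusted over all 411226 cytosines, called a cytosine when the adjusted p was under 0.05 and the levels differed by 25 points or more. It compares libraries, not conditions. It called 1111 cytosines of the cluster (30.1%) lower in KO naive than in KO primed cells, against a background of 27.4%, and 13 higher (background 0.392%). It called 1166 (31.5%) lower in WT naive than in WT primed cells, against a background of 26.7%, and 23 higher (background 0.828%).

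Tiles that lost nearly all methylation were rare. They stood at 60% or above in both primed libraries and at 20% or below in both naive libraries. The cluster held 3 (1.20%), against 0.622% of all tiles and 12 (1.17%) in the rest of chromosome 19, and all 3 lay in the window from 53 to 53.5 Mb. The tile at chr19:53088001-53089000 averaged 5.29% in KO naive, 17.4% in WT naive, 96.8% in KO primed and 94.6% in WT primed cells over 15 cytosines. Its naive and primed cytosines did not overlap: the highest was 11.7% in KO naive and 25% in WT naive cells, and the lowest was 77.3% in KO primed and 78.6% in WT primed cells. All 15 were called lower in both genotypes by Fisher's test with Benjamini-Hochberg adjustment, against 27.4% (KO) and 26.7% (WT) of all cytosines. The tile was picked by its naive and primed levels, so neither the gap nor the calls are separate support. Mean coverage was 52.3 reads in KO naive, 22.7 in WT naive, 20.7 in KO primed and 20.2 in WT primed cells. The nearest placed start was that of ZNF701, a zinc finger gene, 14.96 kb upstream on the gene's strand. The other 2 such tiles had fewer cytosines. At chr19:53363001-53364000 (5 cytosines, 2.63 kb from the placed start of ZNF468) levels were 17.0% in KO naive, 7.32% in WT naive, 95.05% in KO primed and 88.4% in WT primed cells. At chr19:53427001-53428000 (6 cytosines) they were 8.10% in KO naive, 6.61% in WT naive, 68.5% in KO primed and 80.2% in WT primed cells.

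Tiles that kept their methylation were also few. At 80% or above in all 4 libraries stood 4 tiles of the cluster (1.59%), against 4.4% of all tiles and 48 (4.66%) in the rest of chromosome 19. Adjacent tiles at chr19:58966001-58968000, 3.51 and 4.51 kb from the placed start of the zinc finger gene ZNF324B and before that of ZNF324, made up 2 of them. The larger of this pair, with 15 cytosines, averaged 82.1% in KO naive, 89.8% in WT naive, 96.0% in KO primed and 95.6% in WT primed cells. The tile at chr19:53272001-53273000, with 21 cytosines between the placed starts of ZNF611 and ZNF468, averaged 82.2% in KO naive, 86.4% in WT naive, 86.5% in KO primed and 88.4% in WT primed cells. It lies in the same 500 kb window as the 3 tiles described just before, at 20% or below in both naive and 60% or above in both primed libraries. With 5 reads as the minimum 18 tiles met this rule.

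Among the 103 tiles with at least 8 cytosines and 60% or above in both primed libraries, the 8 largest decreases of the genotype mean lay between -84.3 and -41.7 points. After the tile near ZNF701 came chr19:58520001-58521000, between the placed starts of ZNF256 and ZNF135, which averaged 46.9% in KO naive, 19.03% in WT naive, 98.7% in KO primed and 89.7% in WT primed cells over 16 cytosines. Here 15 cytosines in KO and 16 in WT cells were called lower by the adjusted Fisher test. The third, chr19:54667001-54668000, 48.37 kb from the placed start of the splicing factor gene PRPF31, averaged 29.9% in KO naive, 33.7% in WT naive, 89.3% in KO primed and 84.2% in WT primed cells. Next came the start of ZNF578 (described below), then chr19:56739001-56740000 between ZSCAN5B and ZSCAN5A, with 44.6% in KO naive, 33.5% in WT naive, 87.6% in KO primed and 81.2% in WT primed cells. The tile chr19:53229001-53230000, 8.8 kb from the placed start of ZNF611, had 45.1% in KO naive, 29.3% in WT naive, 89.1% in KO primed and 75.6% in WT primed cells. The last, chr19:54269001-54270000, between LOC107985342 and NLRP12, had 56.0% in KO naive, 42.2% in WT naive, 89.98% in KO primed and 91.7% in WT primed cells. In 7 of these 8 tiles each cytosine was lower in KO naive than in KO primed cells, the exception being the tile at the start of LOC107985342 with 22 of 25. In WT cells the only exception was the tile at the start of ZNF578, with 15 of 16. The tiles were picked by their decrease and neighbouring cytosines share reads, so these counts only describe them.

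Gene starts were described by the mean level of all covered cytosines within 500 bp of a placed start, where at least 5 were covered. This gave 38 genes, of which 17 had zinc finger symbols (13 protein-coding and 4 long non-coding), and starts that lie close together share cytosines (ZNF528 with ZNF528-AS1, ZNF667 with ZNF667-AS1, ZNF132 with ZNF132-DT). Zinc finger starts averaged 31.0% in KO naive, 28.7% in WT naive, 64.0% in KO primed and 61.0% in WT primed cells. All 17 were lower in the naive library in both genotypes, and 9 were lower by at least 25 points in both, with a median genotype mean of -29.5 points. Among tiles, 29.9% in the cluster and 23.8% of all tiles were lower by at least 25 points in both genotypes. By any amount, 96.8% of cluster tiles were lower in KO naive and 96.0% in WT naive cells. The 21 other starts averaged 50.05% in KO naive, 48.0% in WT naive, 70.1% in KO primed and 70.5% in WT primed cells. Of these, 18 were lower in both genotypes, 4 by at least 25 points in both, with a median of -22.2 points. Over all 251 tiles the medians were -21.5 points in KO and -24.5 points in WT cells. Tiles with a placed start inside (29 of 251) averaged a difference of -26.7 points in KO and -31.6 points in WT cells, against -23.4 and -24.8 points in tiles without.

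**Figure D3:**
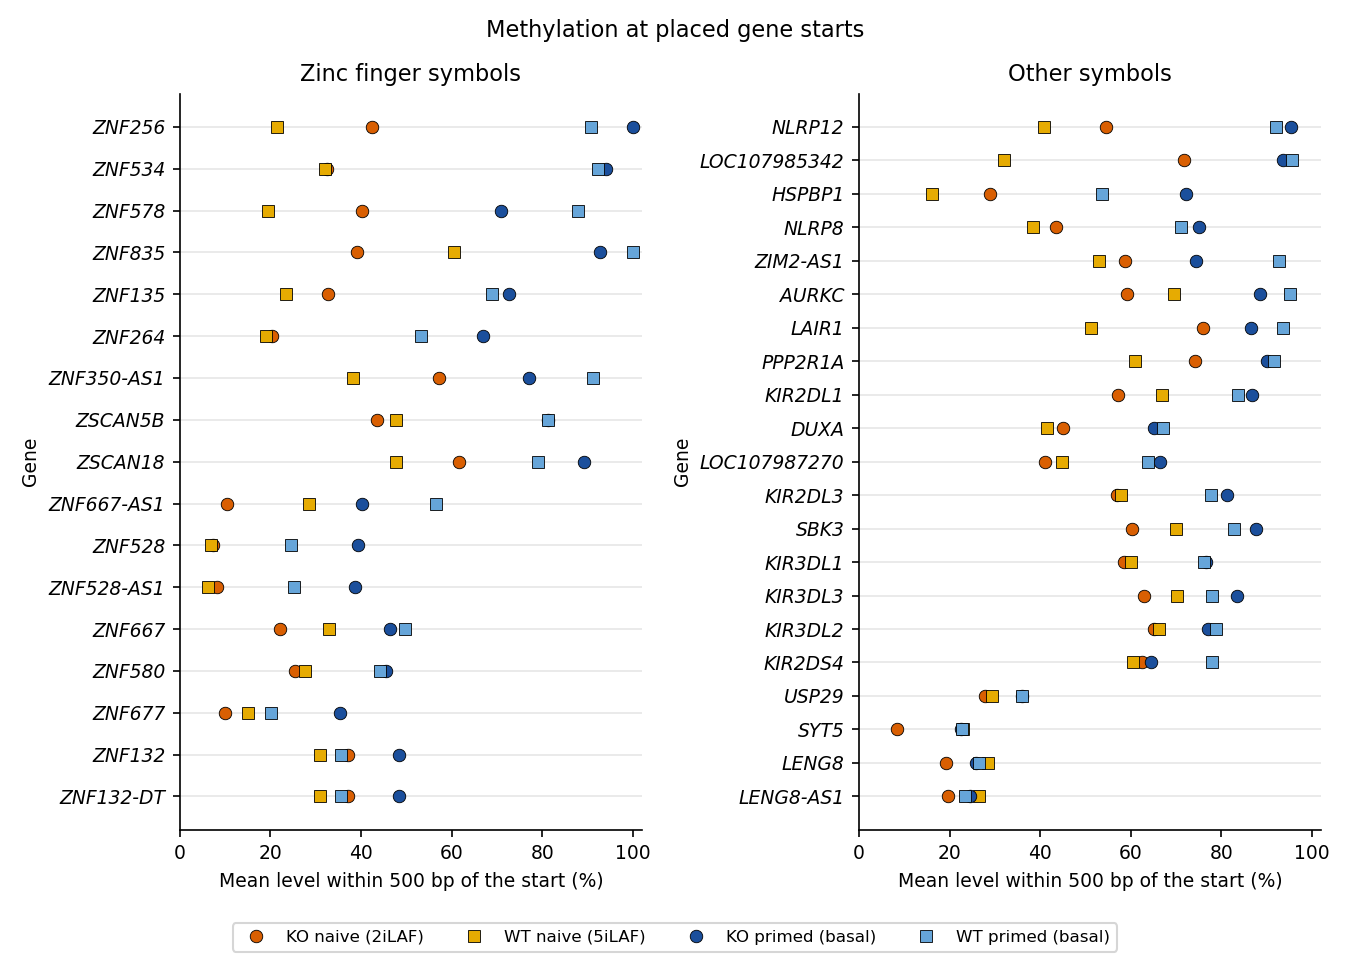
Mean methylation level (%) of cytosines within 500 bp of 38 placed gene starts, in the 4 libraries, for zinc finger symbols (left) and other symbols (right), sorted by the mean naive-minus-primed difference. At ZNF534 the naive libraries stand at 32.4% and 32.0% and the primed libraries at 94.2% and 92.4%, while at ZNF132 all 4 lie between 30.9% and 48.5%.

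The requirement of 5 covered cytosines leaves out starts with little methylation in all 4 libraries, such as ZNF587. Its 1 covered cytosine had 3.33% in KO naive, 5.41% in WT naive, 10.5% in KO primed and 4.88% in WT primed cells. Also left out are starts with high primed and low naive levels, such as ZNF611, which met only the looser of the 2 placement rules. ZNF611 averaged 6.02% in KO naive, 7.34% in WT naive, 78.4% in KO primed and 79.97% in WT primed cells over 2 cytosines. Its genotype mean of -72.5 points was a larger decrease than any among the 38 described genes, where the largest was -63.4 points. Of the 17, 8 were at 60% or above in both primed libraries and 8 were below 60% in both. ZNF534 led the first set among promoters placed by 8 or more CpGs. Its start averaged 32.4% ± 5.4 in KO naive, 32.0% ± 10.3 in WT naive, 94.2% ± 9.1 in KO primed and 92.4% ± 14.2 in WT primed cells (SD over 6 cytosines). The genotypes differed by less than the SD of the cytosines in either state, and naive and primed levels differed by more. ZNF835 averaged 39.2% in KO naive, 60.6% in WT naive, 92.7% in KO primed and 100% in WT primed cells over 6 cytosines, with the KO naive library the lowest. ZNF135 averaged 32.8% in KO naive, 23.4% in WT naive, 72.6% in KO primed and 68.9% in WT primed cells over 5 cytosines.

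The SCAN-domain genes ZSCAN5B and ZSCAN18 lay close together in the WT libraries and furthest apart in the KO naive library. ZSCAN5B averaged 43.4% in KO naive, 47.7% in WT naive, 81.3% in KO primed and 81.2% in WT primed cells over 17 cytosines. ZSCAN18 averaged 61.6% in KO naive, 47.7% in WT naive, 89.2% in KO primed and 79.2% in WT primed cells over 14 cytosines, the highest KO naive level among zinc finger starts. ZNF350-AS1, a long non-coding RNA gene, averaged 57.1% in KO naive, 38.2% in WT naive, 77.0% in KO primed and 91.2% in WT primed cells over 7 cytosines. ZNF264 averaged 20.3% in KO naive, 18.9% in WT naive, 67.0% in KO primed and 53.2% in WT primed cells over 13 cytosines. Among the 38 genes with at least 5 covered cytosines, ZNF256 had the largest difference (-63.4 points, 5 cytosines). The placements of ZNF264 and ZNF256 rest on 8 and 6 matched CpGs and, like those of NLRP12, NLRP8, DUXA and KIR3DL3, met only the looser of the 2 placement rules.

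Other starts were partly methylated in the primed libraries. ZNF528 averaged 7.24% in KO naive, 6.79% in WT naive, 39.3% in KO primed and 24.6% in WT primed cells over 10 cytosines. Of the 27 CpGs in its promoter sequence, 25 were listed in KO naive, 4 in WT naive, 26 in KO primed and 27 in WT primed cells. The levels in the naive libraries are near the floor that listing imposes, and the WT naive mean rests on the CpGs that kept a methylated read. ZNF677 averaged 9.998% in KO naive, 15.0% in WT naive, 35.3% in KO primed and 20.1% in WT primed cells over 18 cytosines. ZNF580 averaged 25.4% in KO naive, 27.7% in WT naive, 45.5% in KO primed and 44.2% in WT primed cells over 10 cytosines, with SDs of 18.1 to 31.3 points.

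ZNF132, whose promoter is printed above, changed least among the zinc finger starts. It averaged 37.0% ± 10.6 in KO naive, 30.9% ± 7.8 in WT naive, 48.5% ± 12.6 in KO primed and 35.6% ± 7.5 in WT primed cells (SD over 21 cytosines). Naive minus primed was -11.4 points in KO and -4.71 points in WT cells, within the spread of its cytosines. In both states the KO library was the higher of the pair.

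ZNF667 and ZNF667-AS1 start close together on opposite strands. The window of ZNF667-AS1 averaged 10.4% ± 5.3 in KO naive, 28.5% ± 17.1 in WT naive, 40.2% ± 9.4 in KO primed and 56.5% ± 27.6 in WT primed cells over 31 cytosines. All 31 cytosines were lower in KO naive than in KO primed cells, and 21 were lower in WT naive than in WT primed cells. KO naive was below WT naive at 25 of 31 cytosines and KO primed below WT primed at 21. By the adjusted Fisher test 13 were lower in KO naive than in KO primed cells, 15 were lower in WT naive than in WT primed cells, 1 was lower in KO naive than in WT naive cells and 2 were lower in KO primed than in WT primed cells. Neighbouring cytosines share reads, so these counts only describe the window of ZNF667-AS1. Between -352 and -283 bp from its start every WT naive level was 30% or 60%. The window of ZNF667 averaged 22.2% in KO naive, 33.0% in WT naive, 46.5% in KO primed and 49.6% in WT primed cells over 20 cytosines.

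Listing itself carried a signal at promoters. In 57 placed promoters that do not overlap each other, each matched by at least 8 CpGs, 868 CpGs were listed in at least 1 library. KO naive listed 691 of them (79.6%), WT naive 510 (58.8%), KO primed 690 (79.5%) and WT primed 641 (73.8%). Summed reads at listed cytosines of the cluster were 314565 in KO naive, 182834 in WT naive, 215008 in KO primed and 199221 in WT primed cells. Over the whole cluster, 5376 cytosines had at least 10 reads in both primed libraries. Of these 276 were unlisted in KO naive (5.13%, Wilson 95% interval 4.58 to 5.76%) and 600 in WT naive cells (11.2%, 10.3 to 12.0%). In the rest of chromosome 19 the shares were 4.78% for KO naive and 9.30% for WT naive cells. The unlisted ones had been low in the primed state: their median level in WT primed cells was 20% for those unlisted in KO naive and 36.4% for those unlisted in WT naive cells, against 81.8% for all 5376. A missing row can mean no methylated read or no coverage, and the KO naive library was the deeper of the naive pair. The part of depth in this gap was not tested.

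Other families in the cluster were described at their starts. The 6 KIR genes with at least 5 covered cytosines at their placed start (of 7 placed), natural killer cell receptors, averaged 60.5% in KO naive, 63.6% in WT naive, 78.2% in KO primed and 78.7% in WT primed cells. Their differences ranged from -29.5 to -2.13 points in KO and from -19.9 to -7.65 points in WT cells, and KIR promoters are near-identical copies, so the assignment of reads among them is uncertain. NLRP12, an innate immune sensor, averaged 54.6% in KO naive, 40.9% in WT naive, 95.3% in KO primed and 92.1% in WT primed cells over 5 cytosines, and NLRP8 averaged 43.4% in KO naive, 38.4% in WT naive, 75.2% in KO primed and 71.1% in WT primed cells over 8. AURKC, a kinase of meiotic divisions, averaged 59.2% in KO naive and 69.6% in WT naive cells, against 88.5% in KO primed and 95.2% in WT primed cells over 25 cytosines. Its differences were -29.2 points in KO and -25.6 points in WT cells, beside means over cluster tiles of -23.8 and -25.5 points. DUXA, a double homeobox gene of the early embryo, averaged 44.99% in KO naive, 41.4% in WT naive, 65.2% in KO primed and 67.2% in WT primed cells over 7. USP29, of the imprinted PEG3 domain, differed little, with 27.9% in KO naive, 29.4% in WT naive, 36.0% in KO primed and 36.0% in WT primed cells over 24 cytosines. Coverage there averaged 174 reads in KO naive and 100 to 128 reads in the primed libraries, and without cytosines over 100 reads the genotype mean was -17.3 instead of -7.38 points.

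The genotypes were close in both states when averaged over the cluster. KO primed was above WT primed by 0.64 points, and KO naive was above WT naive by 2.36 points; the rest of the chromosome gave 0.64 and 2.50 points. By the rule of size 2 tiles were lower (background 0.69%) and 3 higher (background 1.31%) in KO primed than in WT primed cells. In the naive pair 2 tiles were lower (background 1.29%) and 8 higher (3.19%, background 2.56%) in KO than in WT cells. The adjusted Fisher test called 23 cytosines lower (background 0.323%) and 28 higher (background 0.603%) in KO primed than in WT primed cells, and 15 lower (background 0.527%) and 28 higher (background 0.911%) in KO naive than in WT naive cells. With 10 reads drawn per cytosine in each library it called 0 in either genotype comparison, with 48 and 68 cytosines at an unadjusted p under 0.05 in the primed pair and 50 and 81 in the naive pair (lower and higher).

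The largest gap between KO naive and WT naive cells lay at the start of LOC107985342. Its tile, chr19:54151001-54152000, averaged 70.1% ± 13.3 in KO naive, 33.0% ± 13.9 in WT naive, 94.4% ± 8.6 in KO primed and 95.3% ± 6.1 in WT primed cells (SD over 25 cytosines). The primed libraries were both near full methylation, and KO naive was above WT naive at 23 of 25 cytosines. Neighbouring cytosines share reads, so this count only describes the tile. Fisher's test with adjustment called 24 of 25 lower in WT naive than in WT primed cells, 9 lower in KO naive than in KO primed cells, and 2 higher in KO naive than in WT naive cells. RefSeq places LOC107985342 as the nearest non-pseudogene before MIR512-1, a microRNA gene of C19MC. The tile lies outside the stretches left out for imprinted genes, although C19MC is expressed from the paternal copy in placenta. Whether imprinting bears on this gap was not tested. Of the 29 CpGs in its promoter, 16 were listed in KO naive, 10 in WT naive, 20 in KO primed and 24 in WT primed cells. With at least 5 reads the genotype mean of the difference was -39.4 points, against -43.3 points.

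**Figure D4:**
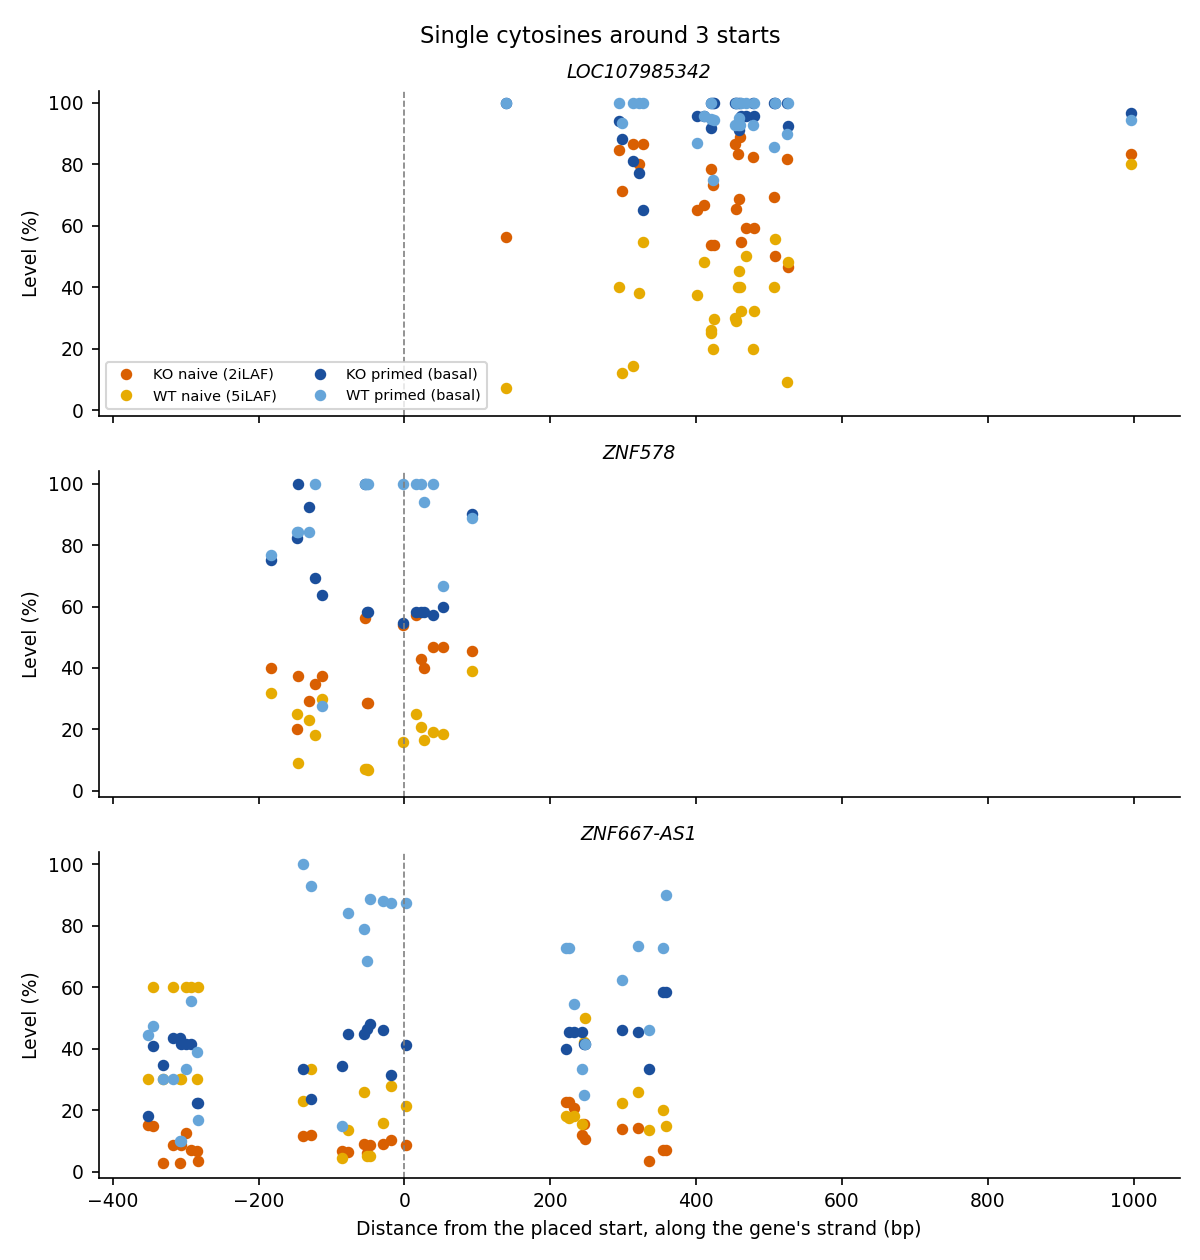
Methylation level (%) of single cytosines against distance from the placed start (bp, along the gene's strand) in the tiles at the starts of LOC107985342, ZNF578 and ZNF667-AS1, for the 4 libraries. WT naive lies below KO naive at 23 of 25 cytosines of LOC107985342 and above it at 25 of 31 cytosines of ZNF667-AS1. Neighbouring cytosines share reads, so they are not separate observations.

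ZNF578 showed the same order of the naive libraries as LOC107985342. Its start averaged 40.3% ± 10.6 in KO naive, 19.6% ± 9.4 in WT naive, 71.0% ± 16.5 in KO primed and 87.9% ± 19.04 in WT primed cells (SD over 16 cytosines). KO naive was above WT naive at 15 of 16 cytosines, while KO primed was below WT primed at 11. The change was therefore -30.7 points in KO and -68.4 points in WT cells. Adjusted Fisher tests called 4 cytosines lower in KO naive than in KO primed cells, 14 lower in WT naive than in WT primed cells and 0 between genotypes in either state. Mean coverage was 13.6 to 18.5 reads, so the same few reads serve neighbouring CpGs.

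Further gaps between the naive libraries lay in other tiles. KO naive was higher at chr19:56164001-56165000, 5.55 kb from the placed start of CCDC106, with 45.02% in KO naive against 15.0% in WT naive cells, and KO primed was also higher there, with 60.1% against 36.7% in WT primed cells. KO naive was higher at all 15 cytosines of that tile. At a placed start of LAIR1, an inhibitory immune receptor, KO naive had 76.0% and WT naive 51.1%, while KO primed had 86.6% and WT primed 93.6%. Another placed start of LAIR1, with 10 cytosines, had a smaller naive gap, with 62.4% in KO naive and 50.8% in WT naive cells. There KO primed was the higher, with 96.3% against 82.3% in WT primed cells. In the other direction the largest gap lay at chr19:58850001-58851000, with 44.0% in KO naive and 79.2% in WT naive cells over 8 cytosines, and there KO primed had 79.0% and WT primed 51.4%. The tile chr19:56599001-56600000 had 46.4% in KO naive and 65.4% in WT naive cells, with 96.1% in KO primed and 94.4% in WT primed cells. The tile chr19:58862001-58863000, 2.36 kb from the placed start of A1BG, had 54.0% in KO naive and 72.1% in WT naive cells, with 92.7% in KO primed and 92.8% in WT primed cells. In the primed pair the tile at the start of ZNF528 had 39.2% in KO primed and 15.1% in WT primed cells, higher in KO at all 8 cytosines. The start of ZIM2-AS1 had 74.4% in KO primed and 92.8% in WT primed cells, lower in KO at 18 of 20. The adjusted Fisher test called 0 cytosines between the primed libraries in these last 2 tiles. Because neighbouring cytosines share reads, counts of cytosines only describe the tiles named here.

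**Figure D5:**
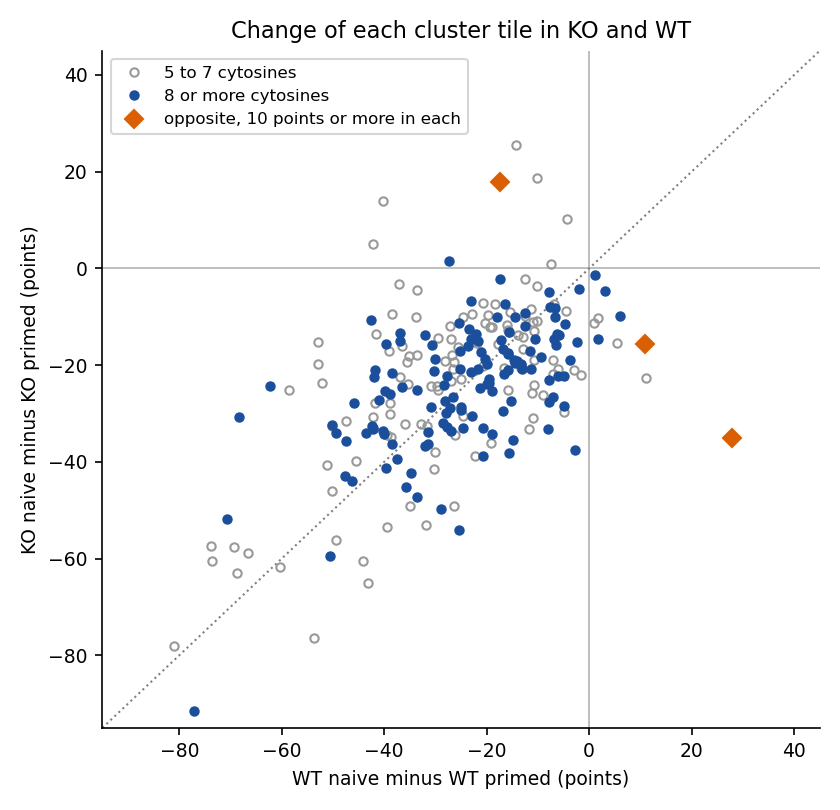
Naive-minus-primed difference (percentage points) of each of the 251 tiles in KO cells (vertical) against WT cells (horizontal); filled points have 8 or more cytosines, and diamonds mark the 3 of these that differ by 10 points or more in opposite directions. Most tiles lie in the lower left, with 243 of 251 below 0 in KO and 241 of 251 below 0 in WT cells. In the rest of chromosome 19, 94.6% of tiles were below 0 in KO and 94.3% in WT cells.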

How the data were processed

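The kit was TruSeq Methyl Capture EPIC, per the labels' protocols. The build named is hg19 (GRCh37), according to the submitters' processing notes. How reads were aligned, deduplicated and called is not given in the sources used here. Each library's table, as the authors deposited it, lists context coverage and methylated coverage as read counts per cytosine and strand, beside a level that is a fraction per the file headers. Rows without a methylated read do not occur in the tables. Levels were recomputed from the counts for each strand apart, with equal weight per cytosine. Differences are in percentage points. With 1 library per group, p-values measure reads or libraries and not conditions.

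Positions of gene starts came from matching the CpG spacing of RefSeq promoters (GRCh38.p14) to the listed hg19 CpGs of chromosome 19; no coordinates were converted. Of 1917 promoters, 316 matched at least 8 CpGs with no listed CpG of the placed 300 bases left unmatched, and led the next best place by a score of at least 4 (an unmatched CpG costing 3); all 316 followed RefSeq's gene order. The thresholds were raised after a first trial placement had been seen, so the order is no independent check. A further 268 were kept at 5 or more CpGs between such neighbours. No hg19 annotation was used here, so exons, introns and gene bodies are not given.

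The named tiles follow a rule: of tiles holding 8 cytosines or more, the 8 largest and 8 smallest decreases among those at 60% or above in both primed libraries, the 5 largest gains and losses of KO against WT in each state, and the 5 largest genotype differences of the change, with the 10 largest and 10 smallest differences among zinc finger starts. The members, lists, tests and this rule were chosen with earlier results of these data known. Both the read test and the size rule were tested on simulated data. Reads were drawn independently for each cytosine there, so reads shared by neighbours and variation between libraries were not covered. Python 3.11.15, numpy 2.4.6, pandas 2.3.3, scipy 1.17.1, numba 0.67.0 and matplotlib 3.10.9 were used. Alternatives covered coverage minimums of 5 and 20 reads, a limit of 100 reads, read-weighted levels, merged strands, unlisted cytosines filled in at 0 from a neighbour within 25 bp, other tile sizes and other parts of the chromosome.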

Additional observations from a re-analysis of the deposited data

Results flagged for a closer look

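Among the 135 cluster tiles with at least 8 cytosines, 8 had naive-minus-primed differences of opposite sign in the genotypes, and 3 of them differed by at least 10 points in each. The difference between genotypes was not tested, since each group held 1 library. At chr19:58850001-58851000, 11.89 kb from the placed start of LOC105372480 and before that of A1BG, the difference was -35.0 points in KO and 27.8 points in WT cells. Levels over its 8 cytosines were 44.0% in KO naive, 79.2% in WT naive, 79.0% in KO primed and 51.4% in WT primed cells, with a mean coverage of 10.6 to 27.4 reads. The adjusted Fisher test called 0 of its cytosines in KO cells and 1 higher in WT cells. At chr19:58094001-58095000, between the placed starts of ZNF549 and ZNF134, the difference was 17.8 points in KO and -17.4 points in WT cells, from levels of 82.3% in KO naive, 67.5% in WT naive, 64.4% in KO primed and 84.8% in WT primed cells over 10 cytosines. At chr19:58547001-58548000, between ZNF256 and ZNF135, it was -15.6 points in KO and 10.9 points in WT cells, from levels of 65.7% in KO naive, 67.1% in WT naive, 81.3% in KO primed and 56.3% in WT primed cells over 9 cytosines.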

How the results depend on the processing

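The mean naive-minus-primed difference of both genotypes stayed negative under each alternative run, between -24.9 and -23.1 points, against -24.7 points. By genotype it was -23.0 (KO) and -23.1 points (WT) with at least 20 reads, -22.4 (KO) and -24.7 points (WT) with unlisted cytosines filled in at 0, -24.3 points (KO) with at least 5 reads, -24.4 points (KO) with at least 10 cytosines per tile and -24.9 points (WT) in 500 bp tiles. The cluster minus the rest of chromosome 19 (-0.84 points over 4 libraries) reversed to 4.18 points with at least 20 reads, 0.65 points with filling in and 0.73 points against the rest of the long arm; the cause was not tested. The excess of the naive-minus-primed difference over the rest (-1.54 points) reversed to 0.32 points against the long arm, a comparison added after seeing the data. KO naive minus WT naive (2.36 points) was 0.79 points with at least 20 reads, 1.36 points with 10 cytosines per tile and 1.87 points in 500 bp tiles, and KO primed minus WT primed (0.64 points) was 0.17 points with filling in. In 250 kb windows with at least 5 tiles the decreases ranged from -36.1 to -13.5 points.

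Counts moved with the number of tiles or reads entering. They are not shares, so a smaller count under a stricter setting need not be a smaller share. Lower tiles in KO and WT naive cells (97 and 119) were 201 and 223 with at least 5 reads, 23 and 26 with at least 20 reads, 38 and 42 with 10 cytosines per tile and 17 and 21 at 50 points. Higher tiles (1 and 1) were 0 and 0 under the same 4 settings, 2 in KO cells when weighted by reads and 0 in WT cells with strands merged. In KO naive against WT naive cells, lower and higher tiles (2 and 8) were 8 and 17 with at least 5 reads, 0 and 2 with at least 20 reads, 0 and 3 with 10 cytosines per tile and 0 and 0 at 50 points; lower tiles were 0 with strands merged and 1 with filling in. In KO primed against WT primed cells (2 and 3) both were 0 with at least 20 reads, with 10 cytosines per tile and at 50 points, and higher tiles were 1 with strands merged and 5 in 500 bp tiles. Tiles at 80% or above in all libraries (4) were 18 with at least 5 reads, 7 with strands merged, 7 in 500 bp tiles and 2 with 10 cytosines per tile. Tiles that lost nearly all methylation (3) were 1 with at least 20 reads, 1 with 10 cytosines per tile and 6 with filling in. Of 3697 cytosines, Fisher calls lower in KO and WT naive cells were 1111 and 1166. With at least 20 reads they were 343 and 354 of 963 cytosines. At 50 points they were 429 and 675, and with 10 reads drawn 110 and 168. Calls higher (13 and 23) were 3 and 5, 3 and 7, and 0 and 1 under the same settings. In KO primed against WT primed cells (23 lower and 28 higher) they were 14 and 18 with at least 20 reads, 16 and 16 at 50 points and 0 and 0 with 10 reads drawn; in KO naive against WT naive cells (15 and 28) they were 11 and 13, 6 and 15, and 0 and 0. Cytosines unlisted in WT naive cells (11.2%) were 9.25% with at least 20 reads in both primed libraries.

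At the 31 named tiles and 38 gene starts, 155 of 166 and 217 of 245 recomputed differences stayed within the counting interval, and 0 that had reached 25 points changed sign. Libraries were paired by genotype only. No paired analysis with a replicate block was possible because each group held 1 library and the labels carry no replicate numbers. At median coverages of 19 to 30 reads, a single cytosine shows only large differences.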
